A study of Homo sapiens with 2 samples.

Results

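The 748 sites described here were peaks of TC32 cells from a CUT&Tag experiment labelled as being for EWS-FLI binding. They lay at the ends of long non-coding RNA (lncRNA) genes and away from the ends of protein-coding genes. A site was an interval called with siNEG, on chromosomes 1 to 22 or X, whose summit was within 1 kb of an end of an lncRNA gene and more than 1 kb from every protein-coding gene end. These 748 sites were 4.60% of the 16274 siNEG intervals, and they fell at 722 different lncRNA genes out of 18177 in the RefSeq gene table. Of the other siNEG intervals, 5887 had their summit within 1 kb of a coding gene end and 9639 lay elsewhere. Each member had to be called with siNEG, which asks for a minimum strength in that library only, and among called intervals position alone picked the members. Overlap with the siEWS-FLI list was not part of the rule.

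In CUT&Tag a transposase is tethered to an antibody and inserts sequencing adapters into the DNA around the protein that the antibody recognises. TC32 is an established Ewing sarcoma cell line. There was 1 library of cells that received siEWS-FLI and 1 library of cells that received siNEG, with no other treatment given in the labels; siNEG is not spelled out there, and neither the antibody nor the number of cells is named. Both libraries were amplified by 14 and then 20 cycles of PCR. With 1 library in each group no difference below had a replicate check, no p-value was computed, and the intervals given in parentheses are 95% intervals that cover counting error only. Fewer bound copies and a shallower library cannot be told apart here.

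EWS-FLI joins part of EWSR1 to the DNA-binding domain of FLI1, a member of the ETS family of transcription factors. ETS factors bind a GGAA core, often within CCGGAAG at CpG-rich promoters, and EWS-FLI is also known to bind runs of repeated GGAA far from genes, where it opens chromatin. LncRNAs are transcribed like messenger RNAs but do not encode a protein. Many start beside or inside a coding gene, on the opposite strand, and others host snoRNAs, which guide RNA modification, or microRNAs, which repress messenger RNAs.

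The letters at the sites are shown first, because 13 of the 20 strongest summits in a readable window had a short ETS word in that window. The 300-base windows below run from 250 bases before to 50 bases after the annotated start of the lncRNA, 5′ to 3′ on the strand of the lncRNA, as given by RefSeq for GRCh38.p14. Capitals mark each GGAA or its reverse complement TTCC, and the full word CCGGAAG or CTTCCGG where it occurs. The first 4 windows hold the ETS word and carry a siNEG summit. MIATNB (chr22:26672593-26672892, plus strand) and LINC00339 (chr1:22025254-22025553, plus strand) were among the strongest sites, LOC105371059 (chr16:3364865-3365164, plus strand) had the lowest ratio of siEWS-FLI to siNEG reads among the 105 sites called in both libraries, and NORAD (chr20:36050911-36051210, minus strand) is the best studied of them.
MIATNB: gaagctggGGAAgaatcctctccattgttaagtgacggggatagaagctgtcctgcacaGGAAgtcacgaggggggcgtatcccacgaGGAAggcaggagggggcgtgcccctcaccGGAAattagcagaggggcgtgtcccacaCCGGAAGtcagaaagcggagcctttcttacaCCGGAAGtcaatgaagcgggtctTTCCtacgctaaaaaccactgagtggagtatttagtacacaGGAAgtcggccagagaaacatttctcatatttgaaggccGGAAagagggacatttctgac
LINC00339: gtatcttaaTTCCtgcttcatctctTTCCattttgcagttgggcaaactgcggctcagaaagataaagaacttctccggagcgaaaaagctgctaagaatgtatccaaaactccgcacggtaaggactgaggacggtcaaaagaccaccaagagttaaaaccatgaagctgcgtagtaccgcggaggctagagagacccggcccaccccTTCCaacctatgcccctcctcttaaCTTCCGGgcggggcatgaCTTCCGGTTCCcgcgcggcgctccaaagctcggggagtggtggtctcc
LOC105371059: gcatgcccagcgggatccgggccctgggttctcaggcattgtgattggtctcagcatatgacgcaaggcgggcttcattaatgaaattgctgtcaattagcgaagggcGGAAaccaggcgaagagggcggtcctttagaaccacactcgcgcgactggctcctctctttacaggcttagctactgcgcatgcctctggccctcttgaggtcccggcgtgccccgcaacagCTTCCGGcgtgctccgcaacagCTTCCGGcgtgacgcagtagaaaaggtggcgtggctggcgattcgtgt
NORAD: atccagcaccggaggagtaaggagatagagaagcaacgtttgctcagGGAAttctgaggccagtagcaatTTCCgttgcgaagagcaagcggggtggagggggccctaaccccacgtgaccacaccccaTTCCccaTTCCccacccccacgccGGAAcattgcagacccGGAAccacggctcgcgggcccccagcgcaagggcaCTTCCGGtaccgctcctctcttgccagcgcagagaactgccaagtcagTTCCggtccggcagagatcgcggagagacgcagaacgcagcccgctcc

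In these windows the word occurred 2 times for MIATNB, LINC00339 and LOC105371059, and 1 time for NORAD. The nearest copy lay 74 bases from the siNEG summit at MIATNB, 43 bases at LINC00339, 18 bases at LOC105371059 and 32 bases at NORAD. The next 3 windows are shown for contrast. L3MBTL2-AS1 (chr22:41217578-41217877, minus strand) and TRIM7-AS2 (chr5:181191640-181191939, plus strand) were strong siNEG sites without the word. LOC124904691 (chr19:33176829-33177128, minus strand) has 1 copy 118 bases from the summit, and a threonine tRNA gene, TRT-AGT1-3 (chr19:33177057-33177130), runs into its window. A second threonine tRNA gene, TRT-TGT6-1 (chr5:181191687-181191758), lies inside the window of TRIM7-AS2.
L3MBTL2-AS1: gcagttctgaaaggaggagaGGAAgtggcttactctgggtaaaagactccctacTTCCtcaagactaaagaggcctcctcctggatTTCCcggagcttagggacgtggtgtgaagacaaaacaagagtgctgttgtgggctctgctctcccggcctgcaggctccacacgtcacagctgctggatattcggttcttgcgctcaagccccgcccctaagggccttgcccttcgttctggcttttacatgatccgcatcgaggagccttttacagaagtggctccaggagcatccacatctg
TRIM7-AS2: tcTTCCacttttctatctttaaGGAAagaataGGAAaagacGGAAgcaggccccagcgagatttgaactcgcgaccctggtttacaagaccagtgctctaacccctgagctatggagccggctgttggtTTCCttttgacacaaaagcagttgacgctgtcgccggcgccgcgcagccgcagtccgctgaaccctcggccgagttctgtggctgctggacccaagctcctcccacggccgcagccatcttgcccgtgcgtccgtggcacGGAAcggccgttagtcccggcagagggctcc
LOC124904691: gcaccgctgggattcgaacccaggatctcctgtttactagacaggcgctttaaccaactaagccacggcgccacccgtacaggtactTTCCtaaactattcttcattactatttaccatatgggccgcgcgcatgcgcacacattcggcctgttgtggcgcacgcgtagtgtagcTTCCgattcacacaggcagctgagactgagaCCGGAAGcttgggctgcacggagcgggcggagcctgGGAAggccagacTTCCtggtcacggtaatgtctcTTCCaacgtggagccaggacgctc

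Across all windows that could be read, the word was more frequent where a summit lay in the window, and most frequent under the strongest summits. The promoter table gave a window for 528 of the member lncRNAs, and 205 members had their summit inside one. CCGGAAG, searched on both strands, was present in 59 of these 205 windows, or 28.8% (22.7% to 35.5%). The share was 4.16% (3.78% to 4.55%) in the 10638 lncRNA windows without a siNEG summit, 6.15% in all 11383 lncRNA windows and 12.2% in all 27195 windows of lncRNA and coding genes. Coding gene windows held it more often: 37.7% of those with a siNEG summit and 9.72% of those without.

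The strength of a site was read as its summit pileup, the raw count at the summit base, which is not scaled between libraries. This count is given in reads, but how far reads were extended is not stated, so some may not cover that base themselves. The word was found in 24 of 104 windows with fewer than 10 siNEG reads (23.1%, 15.4% to 32.4%) and in 11 of 66 with 10 to 19 reads (16.7%, 8.63% to 27.9%). It was found in 14 of 21 windows with 20 to 49 reads (66.7%, 43.0% to 85.4%) and in 10 of 14 with 50 or more (71.4%, 41.9% to 91.6%). In coding gene windows the shares over the same 4 classes were 23.6%, 31.7%, 49.7% and 69.9%. The word lay a median of 49 bases from the summit, within 50 bases in 31 of the 59 windows and within 100 bases in 50 of them.

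Windows with a summit were also richer in G and C, with a median of 62.7% against 48.7% in lncRNA windows without a summit, so the shares were set side by side within GC classes. At 60% GC or more the word was in 27.9% of windows with a member summit (20.4% to 36.5%) and in 9.03% of lncRNA windows without a siNEG summit (7.93% to 10.2%). Below 60% the shares were 30.3% (20.2% to 41.9%) and 2.65% (2.31% to 3.02%). The median GC was 67.7% and 67.3% in the upper class, but 52.6% and 45% in the lower class. The contrast below 60% is therefore not matched for GC. A run of 4 or more uninterrupted GGAA, the repeat class, was in 0 of 528 member windows, which allows a share of up to 0.568% (3 counts of the total), and in 3 of all 11383 lncRNA windows. GGAAGGAA was in 4.17% of member windows and 3.93% of all lncRNA windows. No match says only that these letters are not in the 300 bases read.

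**Figure D1:**
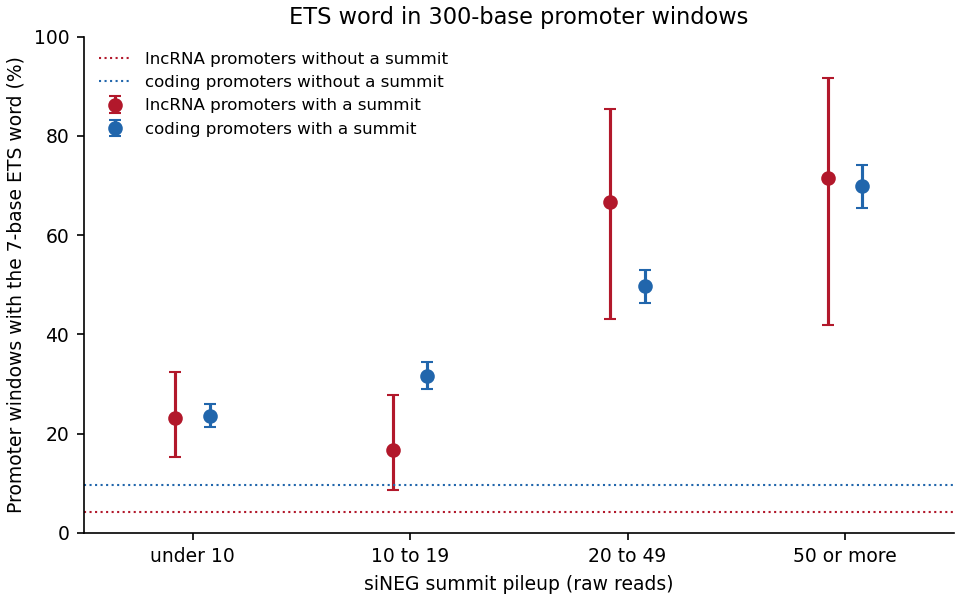
Share of 300-base promoter windows that hold CCGGAAG on either strand (vertical axis, %) by siNEG summit pileup in raw reads (horizontal axis), for lncRNA windows with a member summit (red) and coding windows with a siNEG summit (blue); bars are 95% Clopper-Pearson intervals and dotted lines the shares in windows without a summit. The red points sit at 23.1% and 16.7% below 20 reads and at 66.7% and 71.4% from 20 reads up, above the dotted line at 4.16%.

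The sites gathered at the starts of the lncRNAs. Strand was known for 545 members. The summit was at the 5′ end of the lncRNA for 425 of them (78.0%, 74.3% to 81.4%), at the 3′ end for 100 (18.3%) and within reach of both ends of a short gene for 20. Summits at 5′ ends lay a median of 195 bases from the end, and summits at 3′ ends a median of 476 bases. Of the 443 summits within 1 kb of a listed lncRNA start, 151 lay in the 200 bases before the start and 78 in the 200 bases from the start on. A siEWS-FLI interval was called at 62 of the 425 sites at 5′ ends (14.6%, 11.4% to 18.3%) and at 9 of the 100 at 3′ ends (an interval of 4.20% to 16.4%).

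**Figure D2:**
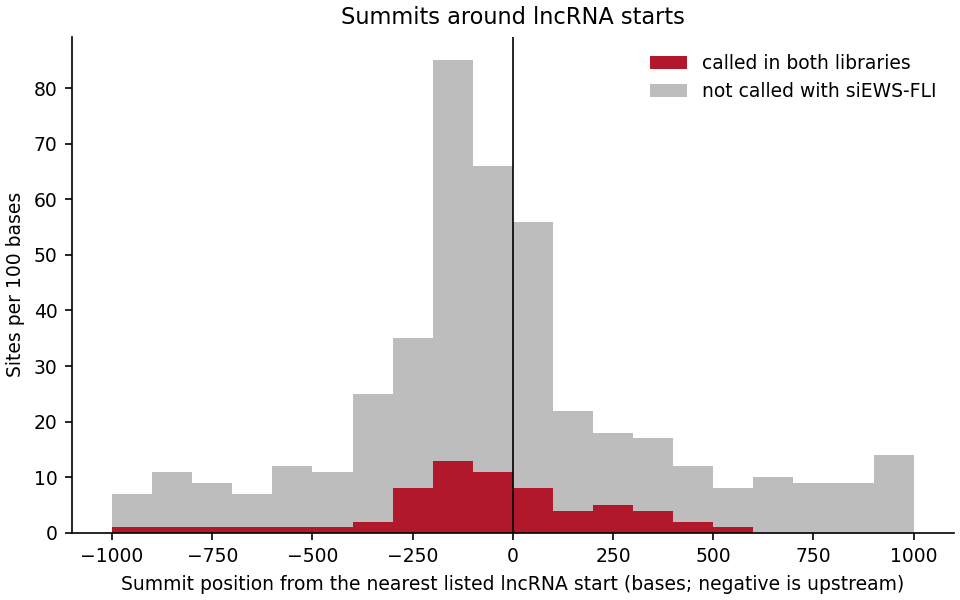
Number of sites per 100 bases (vertical axis) by the distance of the siNEG summit from the nearest listed lncRNA start in bases (horizontal axis, negative is upstream), for the 443 sites within 1 kb of a start, split into sites called in both libraries (red) and sites not called with siEWS-FLI (grey). The tallest bin holds 85 sites and spans 200 to 100 bases upstream of the start.

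Most sites were weak. With siNEG the summit pileup had a median of 8 reads (quartiles 6 and 15), the smallest called pileup was 4 reads and the largest was 1300. Sites at coding gene ends had a median of 12 reads and sites elsewhere a median of 7. Of the 748 members, 422 had fewer than 10 siNEG reads, 196 had 10 to 19, 84 had 20 to 49 and 46 had 50 or more. The commonest background behind the deposited fold values was 0.239 reads in the siEWS-FLI list and 0.348 reads in the siNEG list.

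A siEWS-FLI interval overlapped 105 of the 748 members, or 14.0% (11.6% to 16.7%), beside 15.6% of all siNEG intervals. The siNEG list was the longer one. With only its top 6362 intervals by −log10 q kept, as many as were called with siEWS-FLI, the member share was 31.5%. This cut removes the lowest-ranked siNEG intervals, and no share over all siNEG intervals is given for it. The 31.5% therefore cannot be set beside the 15.6%. A required reciprocal overlap of 50% gave a member share of 7.09%. In the full lists the share was 28.2% at coding gene ends (27.1% to 29.4%) and 8.02% elsewhere (7.49% to 8.58%), so the lncRNA ends lay between these classes and near the share over the whole list. Seen from the other library, 212 siEWS-FLI intervals met the same distance rule, and 110 of them overlapped a siNEG interval (51.9%, 44.9% to 58.8%). This share was 41.1% over all siEWS-FLI intervals, 84.8% at coding gene ends and 19.2% elsewhere. The 102 siEWS-FLI intervals at lncRNA ends without a siNEG interval had 4 to 10 siEWS-FLI reads with a median of 4. The strongest of those was at LOC105374413 near TLR10, a toll-like receptor gene, with 10 reads.

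Calling followed strength, and within classes of siNEG strength the lncRNA ends are set beside the other classes of location. Below 10 siNEG reads, 10 of 422 members were called with siEWS-FLI (2.37%, 1.14% to 4.32%), against 7.02% at coding ends and 2.43% elsewhere. At 10 to 19 reads the figures were 25 of 196 members (12.8%, 8.43% to 18.2%), 21.4% at coding ends and 12.9% elsewhere. At 20 to 49 reads they were 32 of 84 members (38.1%, 27.7% to 49.3%), 51.9% and 27.2%. At 50 reads or more, 38 of 46 members were called (82.6%, 68.6% to 92.2%), against 86.8% at coding ends (83.8% to 89.4%) and 59.7% elsewhere (52.8% to 66.4%). For members below 20 reads the share was close to that of sites elsewhere. For the strongest members its interval included the share at coding ends and lay above the interval of sites elsewhere.

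**Figure D3:**
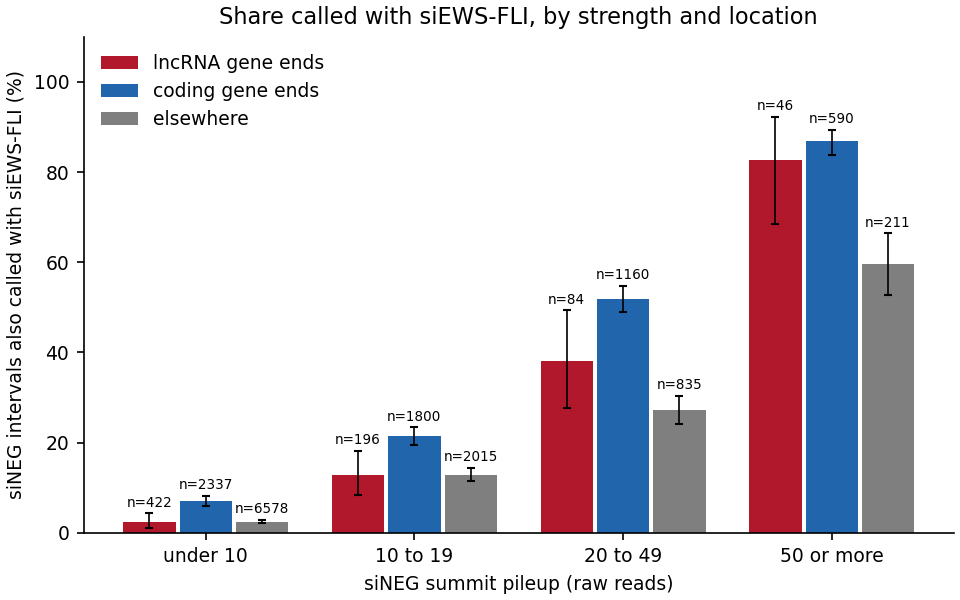
Share of siNEG intervals that also had a siEWS-FLI interval (vertical axis, %) by siNEG summit pileup in raw reads (horizontal axis), for lncRNA ends (red), coding ends (blue) and sites elsewhere (grey); whiskers are 95% Clopper-Pearson intervals and n is the number of intervals. The red bars reach 2.37%, 12.8%, 38.1% and 82.6% and, in the strongest class, stand above the grey bar at 59.7%.

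At the 105 shared members the siEWS-FLI pileup was lower than the siNEG pileup at most sites. Its median was 8 reads with siEWS-FLI and 33 reads with siNEG, and the median of the site ratios, siEWS-FLI over siNEG, was 0.267 (0.220 to 0.333). The median was 0.308 over all 2541 shared siNEG intervals, 0.273 at shared coding ends and 0.435 at shared sites elsewhere. The ratio was below 0.2 at 36 of the 105, above 0.5 at 22 and above 1 at 6. Because at least 4 reads were needed for a call, weak siNEG sites could enter this comparison only with a high ratio: the median was 0.900 among the 10 shared members with fewer than 10 siNEG reads and 0.167 among the 38 with 50 or more. In that strongest class the medians were 0.138 at coding ends and 0.164 elsewhere.

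**Figure D4:**
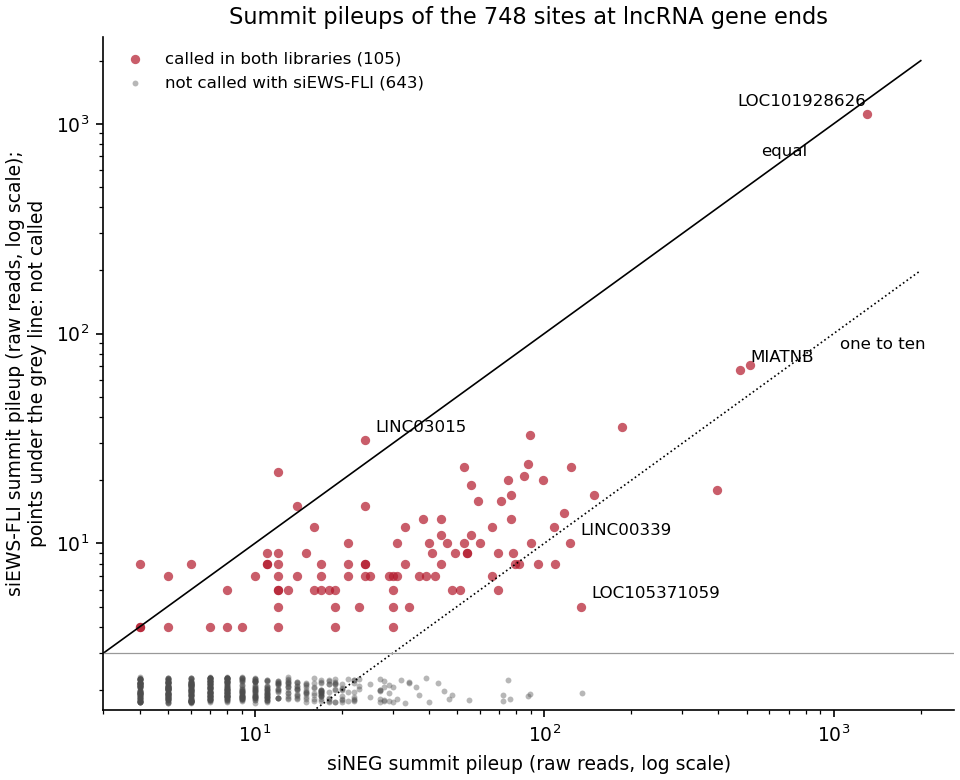
Summit pileup with siEWS-FLI (vertical axis, raw reads, log scale) against summit pileup with siNEG (horizontal axis, raw reads, log scale) for the 748 sites; the 105 sites called in both libraries are red and the 643 not called with siEWS-FLI are grey, spread below the grey line without a value. The solid line marks equal pileups and the dotted line a ratio of 1 to 10; 6 sites lie above the solid line.

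The highest pileup belonged to a site that differs from the rest. At LOC101928626 (chr1:629803-630109) the summit held 1115 reads with siEWS-FLI and 1300 with siNEG, a ratio of 0.858. This interval lies on MTND2P28, a nuclear copy of a mitochondrial gene, and the part of mitochondrial reads in its pileup was not tested. It was the only member on an annotated mitochondrial copy. Without it 13.9% of the remaining 747 members had a siEWS-FLI interval.

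The next strongest shared members had far fewer reads with siEWS-FLI than with siNEG. LOC124902297 (chr9:134164477-134165339) had 71 reads with siEWS-FLI and 513 with siNEG, and lies 4.96 kb from WDR5, a scaffold of histone H3K4 methyltransferase complexes. The same interval overlaps RNU6ATAC (chr9:134164439-134164564), the gene of a small nuclear RNA of the minor spliceosome. MIATNB, a neighbour of the lncRNA MIAT, had 67 reads with siEWS-FLI and 476 with siNEG (chr22:26672450-26673255, 3 bases from the gene end), a ratio of 0.141. Its nearest coding gene, the lens crystallin gene CRYBA4, was 42.2 kb away. LOC124902038, on chromosome 8 inside EXOSC4, which encodes a subunit of the RNA exosome, had 18 reads with siEWS-FLI and 395 with siNEG, a ratio of 0.0456.

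Further down the list the siEWS-FLI counts stayed low while siNEG counts ran from 99 to 185. LOC124904691, at the tRNA gene shown above and 1.24 kb from WDR88, had 36 reads with siEWS-FLI and 185 with siNEG. LOC105379016 had 17 reads with siEWS-FLI and 149 with siNEG, LOC124903881 near RSRP1 had 23 with siEWS-FLI and 124 with siNEG, and LOC124905136 had 14 with siEWS-FLI and 117 with siNEG. LINC00659 near the neurotensin receptor gene NTSR1 had 12 reads with siEWS-FLI and 108 with siNEG, and LOC101927949 near S100A11, a calcium-binding protein gene, had 20 with siEWS-FLI and 99 with siNEG. All of these were called in both libraries. They were named for a high siNEG pileup and reads were not scaled between libraries, so a lower siEWS-FLI count was favoured by that choice.

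The lowest ratios belonged to 5 sites with 95 to 395 siNEG reads. LOC105371059 (chr16:3364832-3365468), whose window is shown above, had 5 reads with siEWS-FLI (1.62 to 11.7) and 134 with siNEG (112 to 159), a ratio of 0.0373. LINC00339, which lies near CELA3A, a pancreatic elastase gene, had 10 reads with siEWS-FLI and 123 with siNEG, a ratio of 0.0813. LACAT1, 27.6 kb from SEPTIN9, a gene of the septin cytoskeleton, had 8 with siEWS-FLI and 95 with siNEG, a ratio of 0.0842. MINCR, an lncRNA named for its induction by MYC, had 8 with siEWS-FLI and 109 with siNEG beside the zinc finger gene GLI4, a ratio of 0.0734. The other was LOC124902038, given above.

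Other shared members were named for a high ratio or a high siEWS-FLI pileup, so a higher siEWS-FLI count was favoured by that choice. Among those with 20 or more siNEG reads, LINC03015 (chr7:149118-149592) had 31 reads with siEWS-FLI and 24 with siNEG, a ratio of 1.29, and it was the only one of these above 1. HCG14 had 15 with siEWS-FLI and 24 with siNEG, LOC124904635 near ZNF846 had 10 with siEWS-FLI and 21 with siNEG, and FAM85B had 23 with siEWS-FLI and 53 with siNEG. With fewer siNEG reads, LINC01778 near SDC3, a syndecan gene, had 22 reads with siEWS-FLI (13.8 to 33.3) and 12 with siNEG (6.20 to 21.0). The remaining sites with high siEWS-FLI pileups had 16 to 33 reads with siEWS-FLI and 56 to 89 with siNEG, among them LOC112268090, LOC124904724 beside PLAUR, the urokinase receptor gene, and LOC124904633 near MYO1F.

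No siEWS-FLI interval was called at 643 members, of which 60 had 20 or more siNEG reads. LOC105370292 (chr13:85334132-85334600) had the most, with 135 siNEG reads (113 to 160), and its nearest coding gene, SLITRK6, lay 458 kb away. Had the siEWS-FLI background there equalled the local siNEG background, as many as 12 siEWS-FLI reads could have gone uncalled. The siEWS-FLI background at the site is not known, so 12 is not a firm limit. LINC00339, for example, was called with 10 siEWS-FLI reads where the same reckoning gave 19. How many siEWS-FLI reads lay at LOC105370292 is unknown, and the site is not shown to be empty. A siEWS-FLI interval lay within 1 kb of 16 of the 643 without overlapping.

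The next strongest of these sites carried 47 to 89 siNEG reads. LINC01117 had 89 and lies 318 kb from MTX2, a gene of mitochondrial protein import. LOC124902624 had 88 beside SMPD1, which encodes acid sphingomyelinase. L3MBTL2-AS1, inside L3MBTL2, had 76, and TRIM7-AS2 beside the ubiquitin ligase gene TRIM7 had 75. LOC124906119 near the ligand gene WNT10A and LOC124902030 near PTK2, which encodes focal adhesion kinase, had 72 each. LOC105372990 near MTFP1 had 55, LINC00665 near ZFP14 had 48 and UBE2D3-AS1 inside the ubiquitin-conjugating enzyme gene UBE2D3 had 47.

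Several of the strong members sat on other annotated genes, a comparison added after the values were seen. A tRNA gene lay under 9 members, and 5 of the 9 had a siEWS-FLI interval (55.6%, 21.2% to 86.3%), beside 14.0% of all members. Their median siNEG pileup was 19 reads, against 8 over all members. With 20 or more siNEG reads, 3 of 4 members on a tRNA gene and 67 of 126 others (53.2%) were called with siEWS-FLI. Besides the windows shown, LINC02453 on a pair of tRNA genes near TMPO had 7 reads with siEWS-FLI and 31 with siNEG, and HCG14 on TRL-CAA1-1 had the values above. Among the 9639 sites elsewhere, 36 of 77 on a tRNA gene had a siEWS-FLI interval (46.8%), and at coding ends 26 of 34 (76.5%). Small nuclear RNA genes lay under 6 members, with 3 of the 6 called in both libraries (50%, 11.8% to 88.2%), beside 14.0% of all members. Their median siNEG pileup was 12.5 reads. The called sites with 21 and 4 siNEG reads were both at LOC105379574. On such genes 5 of 9 sites at coding ends and 5 of 12 elsewhere were called with siEWS-FLI.

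Annotated pseudogenes lay under 27 members, and 12 of these were called in both libraries (44.4%, 25.5% to 64.7%), beside 14.0% of all members. Their median siNEG pileup was 12 reads, against 8 over all members. With 20 or more siNEG reads, 8 of 8 on a pseudogene and 62 of 122 others (50.8%) were called with siEWS-FLI. The 8 include LOC101928626 on the mitochondrial copy and the 4 copies of 1 gene family named next. Copies of 1 family recurred: LINC02018 on FAM86DP had 9 reads with siEWS-FLI and 69 with siNEG, and LOC105369250 on FAM86KP had 10 with siEWS-FLI and 60 with siNEG. LINC02021 on FAM86HP had 16 reads with siEWS-FLI and 59 with siNEG, and LOC105374358 on FAM86EP had 19 with siEWS-FLI and 56 with siNEG. Reads from near-identical copies cannot be assigned to 1 copy with certainty, so these 4 sites may share reads. Among sites elsewhere on a pseudogene, 52 of 239 had a siEWS-FLI interval (21.8%), and at coding ends 21 of 49 (42.9%). With 20 or more siNEG reads these counts were 26 of 40 (65%) elsewhere and 15 of 18 (83.3%) at coding ends.

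The lncRNAs themselves were mostly uncharacterised loci. LOC symbols made up 394 of the 748 (52.7%), against 67.8% of all lncRNA genes, LINC symbols 135 (18.0%, against 12.7%) and antisense symbols ending in AS 128 (17.1%, against 11.2%). Divergent transcripts, with symbols ending in DT, made up 15 (2.01%, against 3.25%). By symbol, snoRNA hosts made up 9 (1.20%, against 0.182%), microRNA hosts 11 (1.47%, against 0.479%) and other symbols 54 (7.22%, against 3.81%). The share called with siEWS-FLI was 13.2% for LOC, 14.1% for LINC and 13.3% for antisense symbols, each near the 14.0% of all members.

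Antisense members carried up to 77 siNEG reads. MATN1-AS1 in the matrilin gene MATN1 had 13 reads with siEWS-FLI and 77 with siNEG, and DNPEP-AS1 in the aspartyl aminopeptidase gene DNPEP had 7 with siEWS-FLI and 66 with siNEG. PCNA-AS1, which crosses the gene of the DNA replication clamp PCNA, had 5 with siEWS-FLI and 30 with siNEG. TANK-AS1 and ZFHX3-AS1 had 30 siNEG reads each and no siEWS-FLI interval. Of the 15 divergent transcripts 4 were called in both libraries (26.7%, 7.79% to 55.1%), beside 14.0% of all members. EOLA1-DT had 9 reads with siEWS-FLI and 54 with siNEG, and TRIM8-DT had 10 with siEWS-FLI and 46 with siNEG. CTDP1-DT had 9 with siEWS-FLI and 12 with siNEG, and ZNF567-DT had 8 with siEWS-FLI and 6 with siNEG. TAF12-DT, ZNF584-DT and ZFP28-DT had 31, 28 and 27 siNEG reads and no siEWS-FLI interval.

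Host genes of small RNAs were near the median strength of 8 siNEG reads over all members, with a median of 8 for snoRNA hosts and 9 for microRNA hosts. Of 29 listed snoRNA host genes, 16 had a siNEG summit within 1 kb of an end, 8 of them only at sites that also touched a coding end. The other 8 gave 9 members, beside 722 of all 18177 lncRNA genes at a member. These 9 members had 5 to 19 siNEG reads, led by SNHG29 with 19 and DANCR, an lncRNA that restrains differentiation, with 17. None of the 9 had a siEWS-FLI interval, which allows a share of up to 33.3% (3 counts of the total); among all members of such strength the shares were the 2.37% and 12.8% given above. Of 26 listed microRNA host genes 7 were members, beside the same 722 of all 18177 lncRNA genes. MIRLET7A1HG, host of let-7 microRNAs, had 10 reads with siEWS-FLI (4.80 to 18.4) and 90 with siNEG (72.4 to 111). MIR181A2HG had 4 with siEWS-FLI and 5 with siNEG. MIR210HG, host of a hypoxia-induced microRNA, had 16 siNEG reads, MIRLET7BHG and MIR503HG had 9 each, MIR17HG had 7 and MIR646HG had 5, with no siEWS-FLI interval.

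Of 36 well studied lncRNAs listed, 35 were in the gene table and 5 were members, beside 722 of all 18177 lncRNA genes. None of the 5 had a siEWS-FLI interval. The share was 14.0% over all members, 2.37% below 10 siNEG reads and 38.1% at 20 to 49. NORAD, which binds PUMILIO proteins, had 21 siNEG reads, and CRNDE, which lies beside the homeobox gene IRX5, had 20. KCNQ1OT1, the imprinted antisense RNA of KCNQ1, had 7, HOTAIR in the HOXC cluster had 5 and CCAT1 had 4. CHASERR, an lncRNA upstream of the chromatin remodeller gene CHD2, was on no list and had 8 reads with siEWS-FLI and 17 with siNEG.

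The nearest coding genes numbered 682. The median distance to the nearest coding gene end was 16.6 kb, and 264 of the summits lay inside a coding gene (35.3%). Inside or within 5 kb of a coding gene lay 345 (46.1%, 42.5% to 49.8%). Where the strand of both genes was known, the lncRNA overlapped its neighbour on the opposite strand in 179 of 453 (39.5%). It ran in tandem with it in 124, away from it in 94 and towards it in 47. A siEWS-FLI interval was called in 22 of the 179, 20 of the 124, 11 of the 94 and 6 of the 47. These shares were 12.3%, 16.1%, 11.7% and 12.8%, beside 14.0% of all members. Another listed start of a coding gene lay within 1 kb of the summit in 102 members, because a gene can have several starts inside its outer ends. Of those 102, 19 were called with siEWS-FLI (18.6%), against 86 of the other 646 (13.3%). The 646 include the 26 members on chromosome 8, where no start was listed.

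The share called with siEWS-FLI varied with the distance to coding genes. It was 19.7% at 1 to 2 kb from a coding end (13 of 66), 18.1% at 2 to 5 kb, 19.8% at 5 to 10 kb, 12.4% at 10 to 50 kb, 9.42% at 50 to 200 kb and 6.98% beyond (3 of 43). The median siNEG pileup over the same bins was 14.5, 9, 8, 8, 7 and 7 reads. Members inside a coding gene were called in 33 of 264 (12.5%), against 72 of 484 outside (14.9%). Among members with 20 or more siNEG reads the share was 52.3% within 5 kb (23 of 44), 52.9% over 5 to 50 kb (37 of 70) and 62.5% beyond 50 kb (10 of 16, 35.4% to 84.8%). Among sites elsewhere of that strength it was 43.6%, 35.3% and 25.2% over the same distances.

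**Figure D5:**
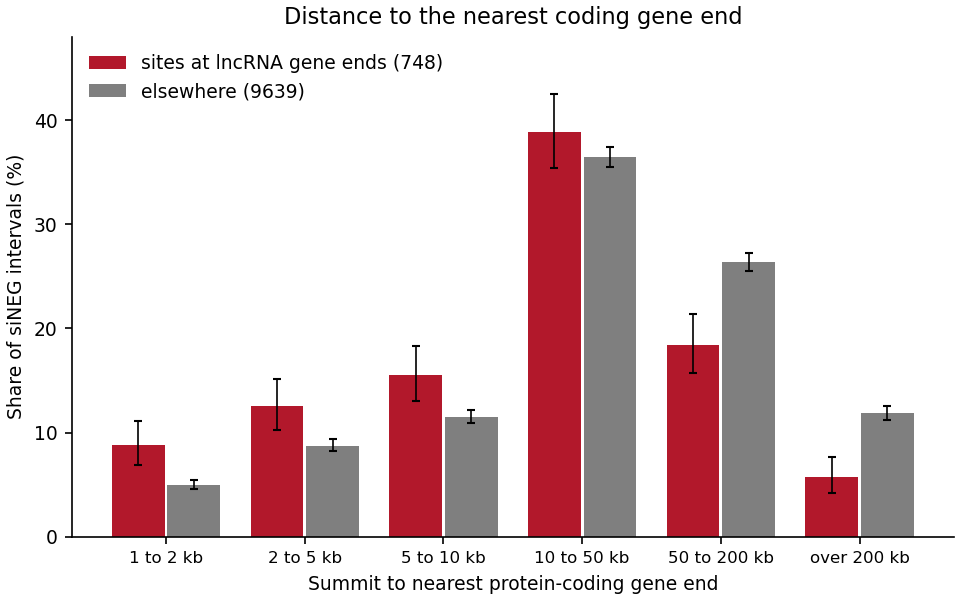
Share of siNEG intervals (vertical axis, %) by distance of the summit from the nearest protein-coding gene end (horizontal axis, kb), for the 748 sites at lncRNA ends (red) and the 9639 sites elsewhere (grey); whiskers are 95% Clopper-Pearson intervals. More of the red sites lie 1 to 2 kb from a coding end (8.82% against 4.98%) and fewer lie over 200 kb away (5.75% against 11.9%).

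Several coding genes were nearest to more than 1 member. TRIM27, a ubiquitin ligase gene in the extended major histocompatibility region, was nearest to 4, at LOC124901296, HCG14 and LINC01556. The 2 members at HCG14 had 15 reads each with siEWS-FLI, at different siEWS-FLI intervals, and 24 and 14 with siNEG. GASAL1, the nearest lncRNA of 3 members beside AZIN1, the antizyme inhibitor gene, had 25, 21 and 17 siNEG reads and no siEWS-FLI interval. In all, 24 lncRNAs had 2 or more members. Where the ends of 2 or more lncRNAs lay within 1 kb of a summit, 13 of 38 members were called with siEWS-FLI (34.2%, 19.6% to 51.4%), against 92 of 710 with a single lncRNA (13.0%), and the median siNEG pileup was 11.5 and 8 reads.

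Some neighbours were zinc finger genes, counted here only by symbols that begin with ZNF, ZFP, ZSCAN or ZIM and a number. They were nearest to 34 members (4.55%, 3.17% to 6.29%), against 1.83% of sites elsewhere (1.57% to 2.11%). No such share is given for all siNEG intervals or for coding ends, so an excess over the whole list cannot be read. Of the 34, 20 were on chromosome 19, which carries large zinc finger clusters and held 6.95% of members and 6.31% of all siNEG intervals. Of the 34, 8 were called with siEWS-FLI (23.5%, 10.8% to 41.2%), beside 14.0% of all members. Chromosome 19 held 52 members, and 17 of these had a siEWS-FLI interval (32.7%, 20.3% to 47.1%), beside 29.7% of all siNEG intervals on that chromosome. ZNF790-AS1 had 11 reads with siEWS-FLI and 56 with siNEG.

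Known EWS-FLI targets were among the coding neighbours. Of 25 listed target genes 3 were nearest to a member, beside 682 of all 19974 coding genes. With 3 genes neither a scarcity nor an excess can be read. These were SOX6, LIPI and ID2, with 5 members of 5 to 13 siNEG reads. SOX6, a transcription factor gene of cartilage, had LOC105376572 with 13 reads at 55.9 kb and LOC107984370 with 7 reads at 123 kb. The lipase gene LIPI had LOC105377134 with 11 reads, and LINC01814 gave 9 and 5 reads near ID2, an inhibitor of helix-loop-helix factors. Of 13 listed genes of the Ewing core circuit, SOX6 and TCF4 were neighbours, TCF4 through LINC03092 with 7 reads. None of these sites had a siEWS-FLI interval, beside 2.37% of all members below 10 siNEG reads and 12.8% at 10 to 19. In the libraries as a whole a siNEG summit lay within 1 kb of an end of NR0B1, STEAP1 and PRKCB but not of CCND1, NKX2-2 or CAV1. No siEWS-FLI summit lay there, and no summit of either library lay at the 9 blood, hepatocyte and epithelial marker genes examined. Peak lists hold no expression values, so the cell type itself could not be checked.

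The distance limits cut through similar sites. Just inside the lncRNA limit were LOC101928728, ZNF213-AS1 and LOC124903446, with summits 997, 998 and 999 bases from the end and 15, 44 and 5 siNEG reads. Just outside were SLC16A12-AS1, LINC00690 and LOC124903690, at 1003, 1004 and 1004 bases with 4, 6 and 29 reads. On the coding side, members at LOC124904618, EOLA1-DT and MORF4L2-AS1 lay 1008, 1023 and 1029 bases from a coding end with 22, 54 and 44 reads. Intervals at EGILA, LOC105371716 and H3-3A-DT, at 963, 983 and 992 bases with 4, 25 and 7 reads, were left out. The rule also left out 1198 siNEG intervals that had both a coding and an lncRNA end within 1 kb, 20.4% of those at coding ends.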

How the data were processed

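The deposited data are 1 peak list per library, so peaks were called per library. Per the submitters' processing notes, the tools were MACS2 2.2.9.1, Bowtie2 2.4.5 and Trim Galore 0.6.6 and the build was hg38, with no role stated for any of them. Whether a control library was used, how duplicates were treated and how fragments were extended is not stated. The deposited display score was not used. The deposited fold enrichment (a ratio to local background) and the deposited −log10 p-value at the summit were solved for a whole read pileup, with 1 added to pileup and background in the fold and a Poisson tail behind the p-value. A pileup was found for 100% of lines in both lists, within 0.001 of log10 p, a tolerance that grew in proportion above 10, and the solver was tested on simulated data. The deposited −log10 q-value ranked summits within an interval. The depth in reads is unknown; the commonest solved background of each list is given instead.

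The lists held 6559 lines with siEWS-FLI and 17313 with siNEG; identical intervals were merged, keeping the strongest summit. An overlap of 1 base or more made intervals shared, and where several siEWS-FLI intervals overlapped the one with the highest −log10 q was used. Gene ends, classes and promoter windows came from RefSeq GRCh38.p14. The table of promoter windows is not complete and holds none on chromosome 8, so members there are missing from the results on strand, starts and letters. That table gave the strand. Shares carry Clopper-Pearson intervals, pileups exact Poisson intervals and medians order-statistic intervals, at 95%. PCR duplicates are not independent molecules. Members, lists and letters were chosen with earlier results of these data known.

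The text names the 15 members with the highest siNEG pileup, the 10 further shared members with the highest siEWS-FLI pileup, the 10 strongest siNEG-only members, up to 8 members of each list, the 5 highest and 5 lowest ratios among shared members with 20 or more siNEG reads, and the 3 sites at each side of each limit. A site that this rule names is not reported here. Members on other annotated genes, antisense and divergent examples, CHASERR, ZNF790-AS1, GASAL1 and the sequences were picked after their values were seen. Python 3.11.15, numpy 2.4.6, pandas 2.3.3, scipy 1.17.1 and matplotlib 3.10.9 were used.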

Additional observations from a re-analysis of the deposited data

How the results depend on the processing

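No paired analysis was possible because each group had 1 library and no test was run. Across 15 alternatives, 2 of them chosen after seeing the data, 63 values were recomputed and 47 stayed within the counting interval, or within 1.5 times for the number of sites. The number of sites was 357 without LOC symbols and 420 at a −log10 q of 5 or more. It was 289 at equal list lengths, for which only the siNEG list was cut, by −log10 q. The share with a siEWS-FLI interval was 31.5% at equal list lengths and 7.09% when a reciprocal overlap of 50% was required, and lay between 11.9% and 16.2% under the others. The share at 5′ ends was 84.5% with a limit of 500 bases and 65.7% with 2 kb. The share inside or close to a coding gene was 31.5% with coding ends over 5 kb away, 81.7% when close meant 50 kb and 37.6% without sites within 1 kb of another coding start. The share of promoter windows with the ETS word or the repeat was 17.4% as reported, 21.6% at 500 bases, 13.5% at 2 kb, 21.2% at a −log10 q of 5 or more, 24.1% at equal lengths, 20.9% for intervals wider than 200 bases and 0% for the repeat alone. The shifts in the share inside or close to a coding gene follow from the changed limits. The 0% follows from the absence of the repeat in member windows. The cause of the other shifts was not tested. The median ratio stayed between 0.233 and 0.333. Leaving out a replicate was not possible with 1 library per group.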
